A study of Mus musculus with 28 samples.

Results

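Erythroid cells of the mouse jugular vein were examined as the cell barcodes rich in hemoglobin RNA in 3 single-cell libraries, which came from contralateral veins and from early and late arteriovenous fistulas (AVFs). These barcodes were chosen by their globin content: of the barcodes with 200 to 6000 genes and at most 10% of unique molecular identifiers (UMIs) on mitochondrial genes, those with at least 30% of UMIs on *Hba-a1*, *Hba-a2*, *Hbb-bs* and *Hbb-bt*. They numbered 1200 of 16893 kept barcodes, which is 7.10%, out of 26438 deposited. Of the 1200, 1032 came from contralateral veins, 156 from early AVFs and 12 from late AVFs. The globin share of each barcode selected the cells, so every comparison of them with other barcodes describes the values and is no test.

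The study followed the remodeling of the jugular vein after its end was joined to the side of the carotid artery in male and female C57BL/6 mice. All mice, including those that gave contralateral veins, had a subtotal nephrectomy before the AVF was made. The contralateral vein is the jugular vein of the unoperated side, so the control group shares the renal failure but has no anastomosis. Each single-cell library was made from a pool of vessels of both sexes after enzymatic digestion and a step in red blood cell lysis buffer, and each condition had 1 library. Vessels were also sequenced one by one in bulk: the labels give 7 veins of the contralateral side, 8 AVFs of day 3 (early), 5 of day 10 (mid) and 5 of day 21 (late). The harvest days within each bulk group varied around these label days, most of all in relative terms in early AVFs. The mean harvest day was later in the early and late single-cell pools than in the bulk groups of the same name, and the early spreads overlapped. The label of the late single-cell library carries the word Dilution, which the sources used here do not explain. In the text below, vessels of the bulk series are named by the number in their label.

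A red cell is made in bone marrow and, in stressed mice, in spleen, from precursors that divide a few times while they fill with hemoglobin. Hemoglobin pairs alpha chains, encoded by *Hba-a1* and *Hba-a2*, with beta chains, encoded in adult C57BL/6 mice by *Hbb-bs* and *Hbb-bt*, and each chain holds a heme whose synthesis starts with *Alas2*, the erythroid form of 5-aminolevulinate synthase. The last precursor expels its nucleus and becomes a reticulocyte, which still carries messenger RNA and loses its mitochondria and ribosomes in the blood before it is a mature erythrocyte. Few genes other than globins are read in such cells, and most proteins of earlier stages have been removed by the ubiquitin system.

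The promoters of the 4 genes that chose the barcodes and of *Alas2*, the leading gene outside the globins, are shown because these genes define the cells. They are the 150 bases before the annotated start in RefSeq on GRCm38.p6, 5′ to 3′ on the strand of the gene, with matches to 4 motifs, searched on both strands, in capitals: the GC-rich CACCC box, the CCAAT box, the GATA-factor motif GATAA and the TATAA box. Capitals that read GGGTG or ATTGG or TTATC are matches on the opposite strand. The windows are chr11:32283522-32283671 on the plus strand for *Hba-a1*, chr11:32296342-32296491 on the plus strand for *Hba-a2*, chr7:103827929-103828078 on the minus strand for *Hbb-bs*, chr7:103813924-103814073 on the minus strand for *Hbb-bt* and chrX:150547267-150547416 on the plus strand for *Alas2*.
Hba-a1: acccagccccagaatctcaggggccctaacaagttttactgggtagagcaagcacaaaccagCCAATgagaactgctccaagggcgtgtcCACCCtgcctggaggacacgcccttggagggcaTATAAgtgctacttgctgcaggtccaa
Hba-a2: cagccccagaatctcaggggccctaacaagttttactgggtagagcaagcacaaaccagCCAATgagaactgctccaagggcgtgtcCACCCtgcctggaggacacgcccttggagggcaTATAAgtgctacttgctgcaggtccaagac
Hbb-bs: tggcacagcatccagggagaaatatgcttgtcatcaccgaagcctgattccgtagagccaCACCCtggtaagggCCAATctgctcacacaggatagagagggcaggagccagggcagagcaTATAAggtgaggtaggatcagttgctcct
Hbb-bt: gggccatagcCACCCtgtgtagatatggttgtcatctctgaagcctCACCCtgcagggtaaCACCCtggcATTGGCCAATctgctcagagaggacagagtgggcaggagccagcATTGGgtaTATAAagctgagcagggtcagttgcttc
Alas2: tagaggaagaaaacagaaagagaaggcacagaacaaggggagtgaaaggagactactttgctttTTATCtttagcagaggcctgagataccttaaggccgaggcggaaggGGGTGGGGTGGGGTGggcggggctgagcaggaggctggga

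CACCC was present in 5 of the 5 windows and in 37.4% of 32851 promoter windows of the same length. CCAAT and TATAA were each present in the 4 globin windows, against 24.5% and 14.2% of all windows, and not in that of *Alas2*. GATAA occurred in 1 window, that of *Alas2*, at positions -86 to -82 on the opposite strand, against 13.3% of all windows. In *Hba-a1* the order was CCAAT at -88 to -84, CACCC at -60 to -56 and TATAA at -27 to -23, while in *Hbb-bs* CACCC at -90 to -86 came before CCAAT at -76 to -72. The windows of *Hba-a1* and *Hba-a2* shared a run of 147 identical bases, whereas those of *Hbb-bs* and *Hbb-bt* were 73.2% identical over 153 aligned positions and shared at most 14 bases in a row. These matches describe letters of the reference and not binding in these vessels.

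Contralateral veins held the largest share of hemoglobin-rich barcodes, 1032 of 6319, or 16.3% (exact binomial 95% interval 15.4 to 17.3). Early AVFs held 156 of 4753, or 3.28% (2.79 to 3.83), and late AVFs 12 of 5821, or 0.206% (0.107 to 0.360). The share in contralateral veins was thus 4.98 times that in early AVFs, which was 15.9 times that in late AVFs, and no interval overlapped another. These intervals cover counting error only, and with 1 library per condition the condition and the preparation of its library cannot be told apart. No barcode sequence was shared between libraries among the hemoglobin-rich barcodes, and 5 or 6 were shared among kept barcodes of each pair of libraries.

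**Figure D1:**
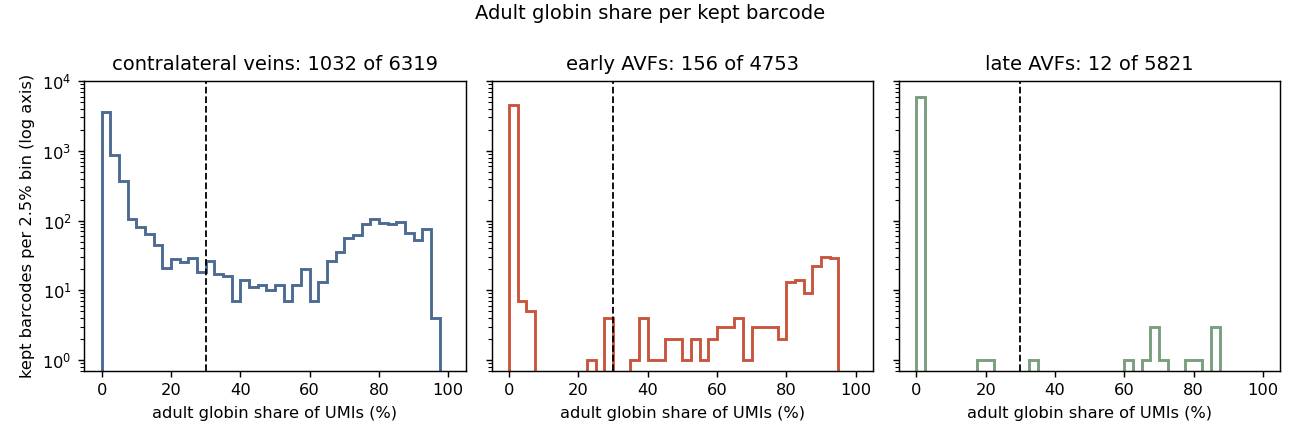
Number of kept barcodes (log axis) by the share of their UMIs on the 4 adult globin genes, in bins of 2.5%, with 1 panel per library and a dashed line at the 30% that chose the hemoglobin-rich barcodes. In contralateral veins values lie on both sides of the line without a gap, from 29.6% to 30.1%, while early AVFs are empty from 28.9% to 37.2% and late AVFs from 20.6% to 34.4%.

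The threshold lay in an empty stretch in the AVF libraries and in a filled one in contralateral veins. The lowest globin share inside it was 30.1% in contralateral veins, 37.2% in early AVFs and 34.4% in late AVFs, and the highest share outside it was 29.6%, 28.9% and 20.6%. In contralateral veins 43 barcodes had 30 to 35% and 47 had 25 to 30%, whereas early AVFs had 0 and 4. Most members were far above the line, with a median globin share of 79.1% in contralateral veins, 87.8% in early AVFs and 69.4% in late AVFs. At least 70% globin was found in 76.3%, 82.1% and 50% of members.

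The lower limit on genes removed more hemoglobin-rich barcodes from contralateral veins than it kept. Without any limit, 3408 of 11563 deposited barcodes in that library (29.5%) had at least 30% globin, against 195 of 7074 (2.76%) in early AVFs and 13 of 7801 (0.167%) in late AVFs. Of these, 2303, 36 and 0 had under 200 genes, and 86, 4 and 1 had over 10% mitochondrial UMIs. In contralateral veins 89.5% of the 2572 barcodes under 200 genes were hemoglobin-rich, compared with 29.8% of 121 in early AVFs and 0 of 11 in late AVFs. The removed barcodes of contralateral veins had a median of 155 genes and 1850 UMIs, against 244 genes and 2680 UMIs in those kept.

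Kept members read fewer genes than the other kept barcodes. Their median number of genes was 244 in contralateral veins, 244 in early AVFs and 259 in late AVFs, against 1274, 2482 and 3361 in the other kept barcodes. Their median UMI count was 2680, 3699 and 1850, which was 0.974, 0.413 and 0.120 times the median of all kept barcodes of the library. Under 300 genes were found in 71.1%, 78.8% and 83.3% of members. Mitochondrial genes took a median of 3.63%, 2.36% and 2.36% of UMIs outside the globins, close to the 3.71%, 3.03% and 2.63% of other barcodes. At least 1000 genes were read in 44, 5 and 1 members, and 40, 5 and 1 of these carried at least 3 markers of another cell type.

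**Figure D2:**
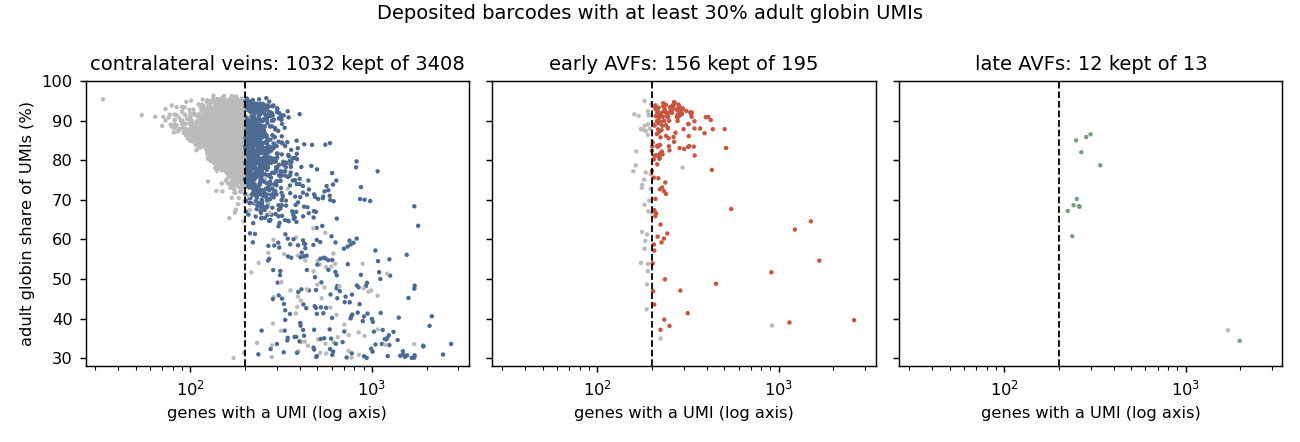
Genes per barcode (log axis) against the share of UMIs on the adult globin genes for deposited barcodes with at least 30% globin, with 1 panel per library, grey for barcodes that failed a limit on genes or mitochondrial UMIs and a dashed line at 200 genes. In contralateral veins 2303 barcodes with at least 30% globin lie below the dashed line, next to the 1032 kept.

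The label of erythroid cells was checked against the 3 of its 5 markers that did not choose the barcodes, *Alas2*, *Bpgm* and *Slc4a1*, since *Hbb-bs* and *Hba-a1* were fixed by the rule. The 10 genes with the highest ratio to the other barcodes held 3 of these 3 in contralateral veins, 3 in early AVFs and 2 in late AVFs, and none of the markers of 9 other cell types. At least 1 of the 3 had a UMI in 96.6%, 89.7% and 91.7% of members, against 18.7%, 7.09% and 9.30% of the other barcodes. All 3 were read together in 250, 23 and 0 members. Each of the 3 was thus read in members of contralateral veins and early AVFs, while *Slc4a1* was at 0 UMIs among the 12 barcodes of late AVFs, which allows a share of cells with a UMI of up to 25%.

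The adult globins made up 79.2%, 85.6% and 64.9% of the members' summed UMIs in contralateral veins, early AVFs and late AVFs. In late AVFs 1 barcode of 1981 genes and 34.4% globin held 6847 of the 11505 UMIs outside the globins (59.5%), and without it the late share was 79.1%. Beta globin exceeded alpha globin in each library at this 3′ end read-out. *Hbb-bs* took 51.7%, 57.0% and 58.8% of the globin UMIs and *Hbb-bt* took 11.1%, 9.62% and 8.05%. *Hba-a1* took 20.8%, 19.4% and 19.4% and *Hba-a2* took 16.4%, 14.0% and 13.8%. Per barcode, both alpha genes together took a median of 38.6% (quartiles 35.3 and 41.6) in contralateral veins, 34.1% (30.8 and 36.4) in early AVFs and 34.6% (32.4 and 36.7) in late AVFs. The split between copies is uncertain, because 86.9% of the windows of 50 bases in the *Hba-a2* transcript also occur in *Hba-a1* and 58.3% of those in *Hbb-bt* occur in *Hbb-bs*.

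The share of *Hbb-bt* was lower in hemoglobin-rich barcodes under 200 genes than in members, in contralateral veins and early AVFs. Barcodes of contralateral veins that were hemoglobin-rich but under 200 genes had 7.95% of their globin UMIs on *Hbb-bt*, below the 11.1% of members. In early AVFs the corresponding shares were 3.92% and 9.62%. The other kept barcodes, in which globin is sparse, had 6.73%, 8.0% and 5.87%. Genes of the embryonic globins were nearly absent. *Hba-x* had 0 UMIs in members of each library, *Hbb-bh1* had 5 and *Hbb-y* 4 in contralateral veins and 0 in both AVF libraries, and *Hbq1a* and *Hbq1b*, which encode theta chains, had 71 and 72 UMIs in contralateral veins, 9 and 5 in early AVFs and 1 and 0 in late AVFs.

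Levels of other genes are given as CPM, scaled to the UMIs outside the 4 adult globins, so that the globin share does not set them. *Alas2* was the leading gene, with 10920 CPM (Poisson 95% interval 10683 to 11162) in members of contralateral veins, 11281 CPM (10630 to 11962) in early AVFs and 4607 CPM (3451 to 6026) in late AVFs. It was detected, with at least 1 UMI, in 96.0%, 87.2% and 83.3% of members and in 12.9%, 0.718% and 0.0689% of the other barcodes. With each barcode thinned to 250 UMIs outside the globins, *Alas2* was still detected in 85.0%, 83.3% and 66.7% of members. The counting intervals of contralateral veins and early AVFs overlapped and that of late AVFs, which rested on 53 UMIs in 10 of 12 barcodes, lay below both. The barcode of 1981 genes set the late level: without it *Alas2* had 10090 CPM (7414 to 13418) in late AVFs, and the late CPM of other genes below are scaled to its UMIs as well. The lower late level was also not seen without the members that carried at least 3 markers of another cell type: the 261, 34 and 2 barcodes left had 15197, 17310 and 16377 CPM of *Alas2*, the last from 16 UMIs.

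Among the enzymes of heme synthesis, the first and the last erythroid steps were read far more than the others given here. *Fech*, which inserts iron into the porphyrin ring, had 2569, 1783 and 869 CPM in the 3 libraries and was detected in 72.5%, 50% and 25% of members. Of the enzymes between them, *Alad*, *Uros*, *Urod*, *Cpox* and *Ppox*, had at most 47 UMIs each in contralateral veins, with *Urod* the highest of these at 63.8 CPM and 4.36% of members. *Alas1*, the housekeeping form of the first enzyme, had 7 UMIs in members of contralateral veins, 0.380 times its level in the other barcodes (0.152 to 0.787). *Slc25a37*, which carries iron into the mitochondrion, had 4389, 2800 and 1130 CPM, while *Tfrc*, the transferrin receptor that brings iron into precursors, was detected in 3.49%, 2.56% and 0% of members. Of the ferritin genes, *Fth1* had 0.861, 0.763 and 1.46 times its level in the other barcodes, with 146 of its 185 late UMIs in 1 barcode, and *Ftl1* had 2.47, 1.35 and 0.853 times its level.

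Among the genes of the membrane and its skeleton, *Epb41*, which encodes protein 4.1 of the membrane skeleton, was the highest with 4960, 3848 and 2086 CPM and was detected in 85.1%, 70.5% and 58.3% of members. Without the late barcode of 1981 genes its late level was 3650 CPM. *Slc4a1*, the anion exchanger of the red cell membrane, had 711 CPM (652 to 775) in contralateral veins and 1098 CPM (901 to 1324) in early AVFs and was detected in 24.7% and 15.4% of members. The higher early level rested on 1 barcode, described below, without which it was 396 CPM (279 to 546). Other members of the list were read rarely in contralateral veins, among them *Epb42* in 4.94%, *Sptb* in 3.20%, *Ank1* in 2.62%, *Kel* in 1.36% and *Rhag* in 1.26% of members. In contralateral veins 15 of the 18 genes on this list were above the other barcodes beyond their counting intervals, as were 5.20% of the 14434 genes with a UMI in members there, and *Aqp1*, a water channel of red cells and endothelium, was below them at 0.685 times.

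Among the red cell enzymes, *Bpgm* and *Gpx1* were highest. *Bpgm* makes 2,3-bisphosphoglycerate, which lowers the oxygen affinity of hemoglobin. It had 5564 CPM (5395 to 5737) in contralateral veins, 5812 CPM (5347 to 6306) in early AVFs and 1565 CPM (927 to 2473) in late AVFs, and was detected in 78.5%, 69.9% and 58.3% of members. Without the late barcode of 1981 genes *Bpgm* had 3006 CPM in late AVFs. In the barcodes without 3 markers of another type, *Bpgm* had 8413, 8619 and 8188 CPM. *Gpx1*, a glutathione peroxidase, had 6408, 7756 and 1825 CPM. *Car2*, a carbonic anhydrase, had 1466, 2337 and 174 CPM. In early AVFs 117 of its 232 UMIs were in 1 barcode, without which it had 1232 CPM. *Car1* and *Pklr*, the red cell carbonic anhydrase I and pyruvate kinase, had 0 UMIs. *Cat* and *Prdx2*, which break down peroxide, had 1312 and 1212 CPM in contralateral veins and 594 and 2327 CPM in early AVFs, the last at 1714 CPM without that barcode. *Sod1* had 0.618, 0.684 and 0.713 times its level in the other barcodes.

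The 9 genes of reticulocyte maturation covered a wide range of levels. *Tent5c*, a poly(A) polymerase, had 8301, 4966 and 2260 CPM, the last at 4723 CPM without the late barcode of 1981 genes. *Mkrn1*, a ubiquitin ligase, had 5972, 7494 and 1825 CPM and *Ube2o*, which marks proteins for removal in reticulocytes, had 1840, 1440 and 782 CPM. *Bnip3l*, needed to clear mitochondria, had 4151, 4039 and 1738 CPM. *Isg20* had 736 CPM in contralateral veins, *Xpo7* 92.3 CPM and *Fbxo7* 61.1 CPM. *Trim58* had 3 UMIs in contralateral veins and 0 in both AVF libraries.

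The 20 leading genes outside the globins included *Alas2*, *Bpgm*, *Car2* and *Slc4a1*. They also held *Ube2l6*, a ubiquitin-conjugating enzyme, with 4801, 4543 and 1651 CPM, and *Prxl2a*, *Isca1*, *Tfdp2*, *Isg20* and *Apol11b*. As a background, the median gene with at least 10 UMIs in members had 0.721, 0.890 and 1.40 times its level in the other barcodes, and 5.41%, 16.6% and 28.0% of such genes had at least 2 times that level. In the late library only 200 genes reached 10 UMIs.

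**Figure D3:**
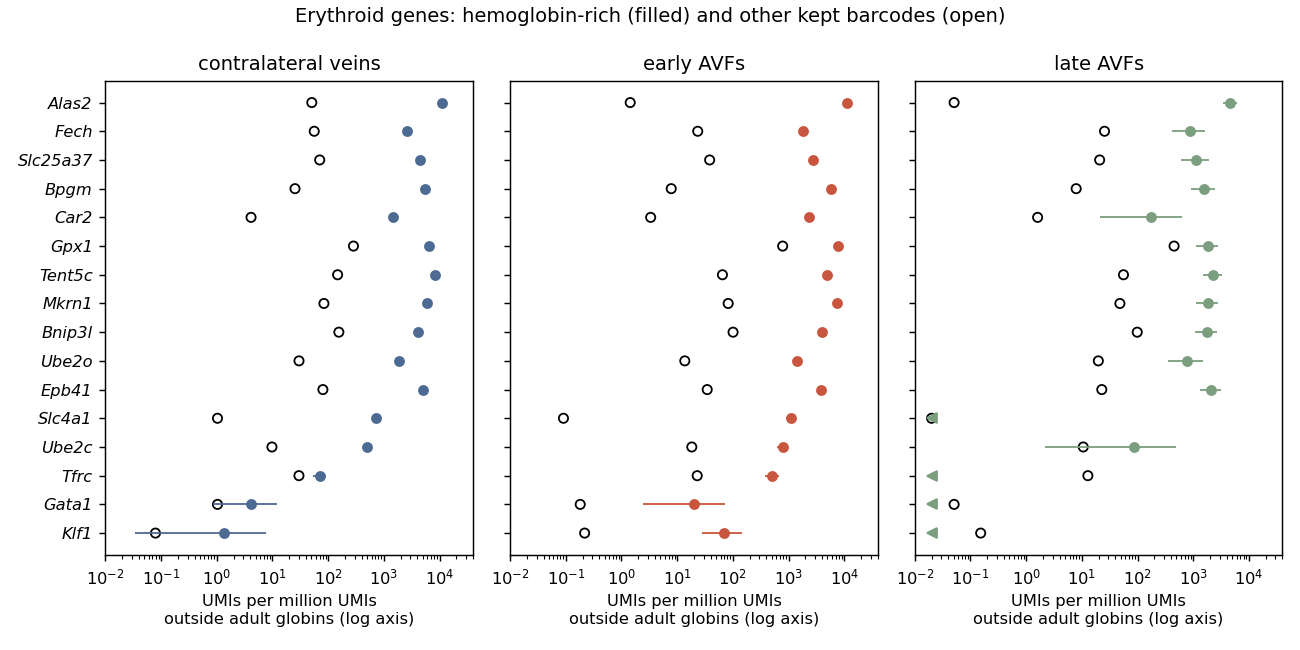
Level in CPM of the UMIs outside the adult globins (log axis) of erythroid genes in hemoglobin-rich barcodes (filled, with Poisson 95% intervals) and in the other kept barcodes (open), with 1 panel per library; triangles at the left edge mark 0 UMIs and open circles there lie at or below the axis minimum. Alas2 stands at 10920, 11281 and 4607 in the 3 libraries, against 50.8, 1.43 and 0.0508 in the other barcodes.

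Regulators and dividing cells were scarce. *Gata1*, *Klf1* and *Epor*, the factors and the receptor that drive red cell formation, had 3, 1 and 1 UMIs in contralateral veins, 2, 7 and 3 in early AVFs and 0 in late AVFs, and *Gfi1b* had 0 in each. *Lmo2* was the most often detected regulator, in 13.0% and 7.05% of members in contralateral veins and early AVFs against 21.1% and 25.8% of the other barcodes, which are deeper. With barcodes thinned to 250 UMIs outside the globins the order turned, with 6.59% and 3.85% of members against 2.12% and 1.00% of the others. *Cdk1* and *Ccnb1*, which drive mitosis, had 1 and 3 UMIs in contralateral veins and 4 and 3 in early AVFs. *Ube2c*, a ubiquitin-conjugating enzyme best known from mitosis, stood apart from them. It was detected in 20.3% (17.9 to 22.9) and 22.4% (16.2 to 29.8) of members against 1.76% and 6.09% of the other barcodes. Its 361 and 79 UMIs were spread over 210 and 35 barcodes, with 19 of the early UMIs in 1 barcode described below. With barcodes thinned to 250 UMIs, *Ube2c* was detected in 12.4% and 15.4% of members against 0.189% and 0.435% of the others.

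Of the genes *Mki67*, *Top2a*, *Tfrc* and *Klf1*, which mark dividing precursors and were chosen after their values were seen, 94.2%, 96.8% and 91.7% of members read none. At least 3 were read in 1 of 1032 members in contralateral veins (0.0969%), 1 of 156 in early AVFs (0.641%, 0.0162 to 3.52) and 0 of 12 in late AVFs, against 0.170%, 0.957% and 0.809% of the other barcodes, which include dividing cells of other types and are deeper, and these shares were not thinned. The barcode of contralateral veins had 947 genes, 4536 UMIs and 41.3% globin, with 37 UMIs of *Mki67*, 14 of *Tfrc* and 44 of *Slc4a1*. The barcode of early AVFs had 1672 genes, 13131 UMIs and 54.6% globin, with 79 UMIs of *Mki67*, 47 of *Tfrc*, 7 of *Klf1*, 72 of *Slc4a1* and 117 of *Car2*. It held 4 fibroblast markers as well.

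That barcode set several values of the early library. It carried 98.8% of the members' UMIs of *Mki67*, 94.0% of those of *Tfrc*, 66.1% of those of *Slc4a1* and 117 of 232 of *Car2*. The early members' UMIs of *Gata1*, *Klf1* and *Epor* were all in that barcode. Without it, 37 UMIs of *Slc4a1* were left in the early members. *Alas2* did not rest on it, since 32 of 1120 UMIs were there. In contralateral veins the corresponding barcode held 8.40% of the UMIs of *Slc4a1*.

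Members were also compared by their globin share, the value that chose them. In contralateral veins the 113 members with 30 to 50% globin had a median of 690 genes and 2171 CPM of *Alas2*, and the 132 with at least 90% had 229 genes and 23823 CPM. *Malat1*, a nuclear RNA, ran the other way, from 47761 to 4611 CPM. In early AVFs *Alas2* was at 1301 CPM in the 11 members with 30 to 50% globin and at 22611 CPM in the 59 with at least 90%. At least 3 markers of another cell type were found in 84.1% of the lowest and 69.7% of the highest class in contralateral veins, and in 11 of 11 and 74.6% in early AVFs. The late library had 1 member under 50%, with 1981 genes, and none at 90%.

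Markers of other cell types were read in most members. Fibroblast markers (*Dcn*, *Col1a1*, *Col3a1*, *Col1a2*, *Lum* and *Pdgfra*) were present with 6, 6 and 5 of 6 genes, at 10881, 13013 and 5302 CPM, which was 0.290, 0.657 and 0.174 times their level in the other barcodes. At least 3 of them were found in 69.4%, 73.7% and 75% of members. Macrophage markers had 0.640, 0.405 and 0.434 times the level of the other barcodes. Platelet markers were 3.32 times higher in members of contralateral veins, with 5 of 5 genes read. At least 3 of them were found in 8.43% of these members and 9.00% of the other barcodes, which are deeper outside the globins. Neutrophil markers were 1.86 times higher in those of early AVFs, where 46.1% of their 863 UMIs were in 1 barcode, and T cell markers were 22.7 times higher in those of late AVFs, where the 20 UMIs were all in 1 barcode of 1981 genes. B cell and Schwann cell markers were at 0 in members of both AVF libraries. Counting any list, 771, 122 and 10 members (74.7%, 78.2% and 83.3%) carried at least 3 markers of another type. No doublet caller was run, and the part of joined cells or of free RNA in these counts was not tested.

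Globin RNA was also read in each other type with enough barcodes, except in the smooth muscle barcodes of late AVFs, and most of all in contralateral veins. Outside the members, at least 1 globin UMI was found in 99.4% of kept barcodes in contralateral veins, 91.2% in early AVFs and 5.49% in late AVFs, with medians of 28, 2 and 0 globin UMIs. Barcodes were sorted into types by their markers, with at least 3 markers of 1 list and fewer of any other. In contralateral veins the summed globin share was 1.39% in fibroblast, 1.41% in macrophage, 1.88% in endothelial and 4.66% in platelet barcodes, and the median count per barcode was 27 to 31 globin UMIs in each of the 8 types with enough barcodes. In early AVFs the shares were 0.0758% in fibroblast, 0.0286% in macrophage and 0.281% in platelet barcodes. In late AVFs they were 0.240% in T cell and 0.205% in platelet barcodes, of which 3.08% and 53.1% had a globin UMI, and at most 0.000546% in the other types.

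**Figure D4:**
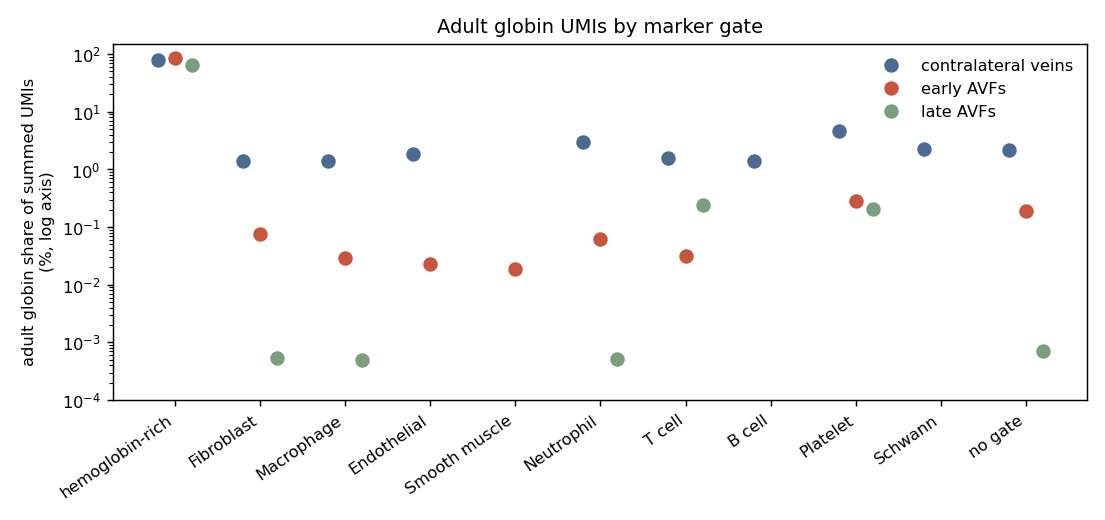
Share of summed UMIs on the adult globin genes (percent, log axis) in the hemoglobin-rich barcodes and in the other kept barcodes, sorted by the marker genes they carry, with 1 colour per library. Types with under 20 barcodes are not shown and the late smooth muscle barcodes, at 0, lie off the axis; each type of contralateral veins, from 1.37% to 4.66%, stands above each such type of the AVF libraries.

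The ratio of *Alas2* to globin was close in members and in the globin background. Members had 28.7 *Alas2* UMIs per 10000 globin UMIs (28.0 to 29.3) in contralateral veins and the other barcodes had 31.5 (29.8 to 33.2). In early AVFs the values were 19.0 (17.9 to 20.2) and 20.6 (16.3 to 25.6), and in late AVFs 24.9 (18.7 to 32.6) and 17.5 (5.67 to 40.7). The intervals did not overlap in contralateral veins, where the ratio was higher in the other barcodes, and did in both AVF libraries. *Hbb-bt* did not keep its proportion: it was 17.6%, 14.4% and 12.1% of the beta globin UMIs in members and 11.3%, 11.5% and 9.31% in the other barcodes.

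Genes that take up or break down free hemoglobin and heme varied in members. In contralateral veins 3 of 9 were lower and 1 higher than in the other barcodes beyond the interval. In early AVFs 2 were lower and 2 higher. Of all genes with a UMI in members, 28.2% were lower and 5.20% higher in contralateral veins, and 8.26% and 6.31% in early AVFs. *Hmox1*, heme oxygenase 1, had 0.400, 0.341 and 0.446 times its level in the other barcodes. *Cd163*, the macrophage receptor for hemoglobin bound to haptoglobin, had 0.688 and 0.335 times that level in contralateral veins and early AVFs and 0 UMIs in late AVFs. *Slc48a1*, a heme transporter, had 399, 483 and 261 CPM, 12.1, 5.83 and 4.39 times the level of the other barcodes, the last from 3 UMIs. *Slc40a1*, the iron exporter, had 2.93 times that level in early AVFs (1.40 to 5.40), from 10 UMIs, and 0.533 times in contralateral veins.

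The bulk libraries gave an independent measure of the same RNAs, since no bulk value entered the choice of barcodes. A bulk level is relative to the other RNA of the vessel. Fewer red cells, less RNA per red cell and more RNA from other cells thus cannot be told apart, and the blood left in each vessel was not measured. Total counts ranged from 20254173 to 67457501 per vessel. The table listed 61 of the 62 genes of the 6 erythroid lists, and 44 passed the minimum mean count of 100. Levels below are CPM after scaling by trimmed mean of M values (TMM).

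Summed over the 4 adult globins, contralateral veins ranged from 3200 to 17293 CPM (median 5689, n = 7) and early AVFs from 1225 to 18438 CPM (median 3383, n = 8). The mid AVFs had 4771, 2608, 2037, 2532 and 966 CPM in vessels 9, 12, 13, 14 and 15. The late AVFs had 394, 898, 528, 1463 and 872 CPM in vessels 16, 17, 19, 23 and 24. Each late vessel lay below each contralateral vein, mid and late vessels overlapped, and early AVFs spanned the range of contralateral veins. The highest early value was 15.1 times the lowest, against 3.71 times among late vessels.

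**Figure D5:**
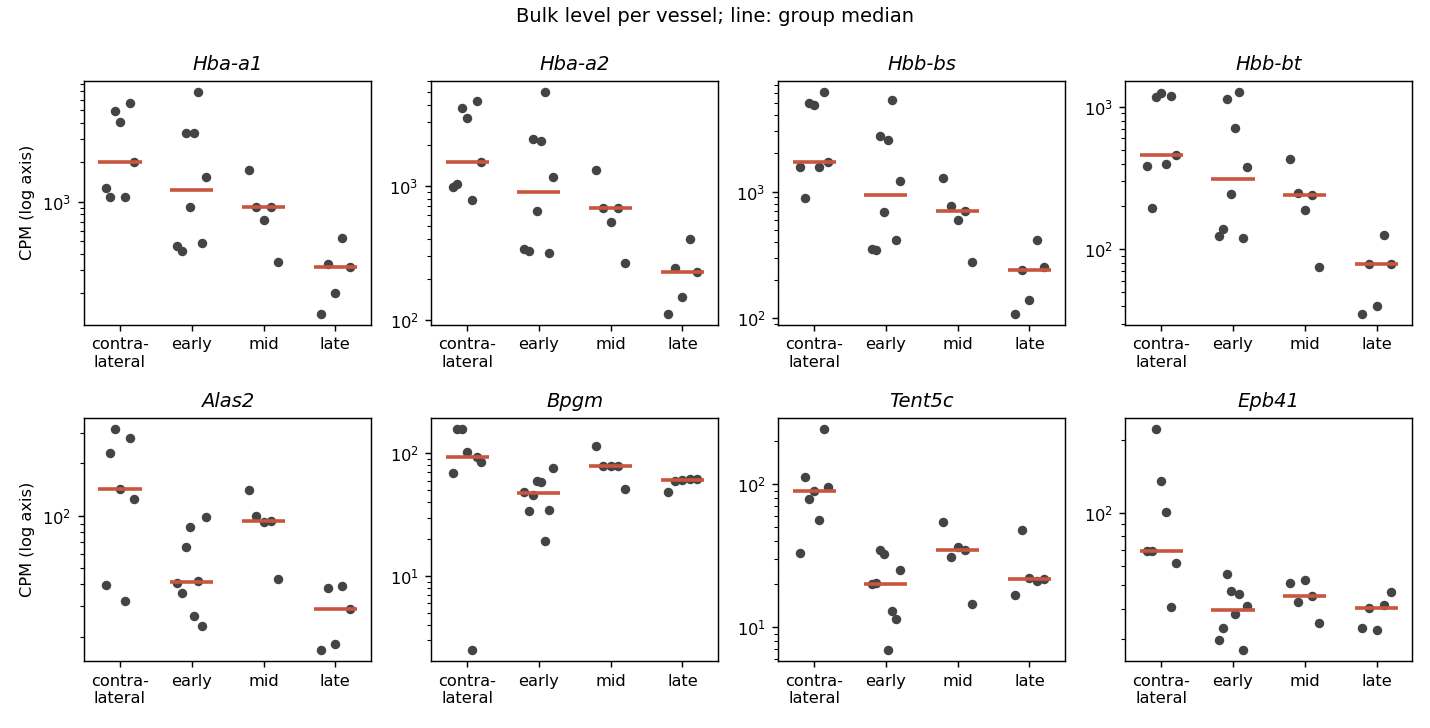
Bulk level (CPM after TMM, log axis) of erythroid genes in the 25 vessels, grouped as contralateral (7), early (8), mid (5) and late (5), with points for vessels and a line at the group median. Hbb-bs lies from 888 to 6107 CPM in contralateral veins and from 108 to 414 CPM in late AVFs, so these groups do not overlap, whereas early AVFs cover 344 to 5298 CPM.

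In late AVFs the 4 adult globins fell against contralateral veins. Their groups did not overlap, but the share of all tested genes without overlap was not counted. *Hbb-bs* was at 108, 241, 140, 414 and 252 CPM in late vessels 16, 17, 19, 23 and 24, against a lowest, median and highest contralateral value of 888, 1710 and 6107 CPM. It fell by 3.74 on the log2 scale (SE 0.72, adjusted p = 0.00091, edgeR quasi-likelihood test). *Hbb-bt* fell by 3.33 (SE 0.67, adjusted p = 0.00145), *Hba-a2* by 3.30 (SE 0.69, adjusted p = 0.00224) and *Hba-a1* by 3.25 (SE 0.70, adjusted p = 0.00276). The 4 globins were thus among the 2.85% of 12673 tested genes that were lower in late AVFs at an adjusted p under 0.01 and a log2 change of at least 1, while 2.49% were higher and 5.33% passed in either direction.

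*Alas2* fell with the globins in late AVFs. It was at 16.7, 38.1, 18.2, 39.3 and 28.7 CPM in late vessels 16, 17, 19, 23 and 24, against a lowest, median and highest value of 32.1, 142 and 317 CPM in contralateral veins. The groups overlapped through contralateral vessel 35, at 32.1 CPM. The change was -2.56 on the log2 scale (SE 0.52, adjusted p = 0.00179). Over the erythroid lists, 8 of the 44 genes tested fell and 1 rose in late AVFs, with a median log2 change of -0.69 against -0.09 over all genes tested. Beside the globins and *Alas2*, these were *Tent5c* (-1.97, adjusted p = 0.00729), *Epb41* (-1.36, adjusted p = 0.00911) and *Sod1* (-1.79, adjusted p = 0.00937), and *Nfe2*, a transcription factor of platelet and red cell precursors, rose from 0.081 ± 0.102 CPM (SD, n = 7) to 9.95 ± 5.02 CPM (SD, n = 5). The contralateral counts of *Nfe2* were so few that its fitted log2 change of 6.82 depends on the prior count. *Epb41* and *Sod1* each lost this call in 18 of the 25 fits that left out 1 vessel and *Tent5c* in 11, and *Epb41* also under 4 and *Sod1* and *Tent5c* each under 2 of 9 other settings. In all, 4 genes were called without late vessel 16. Leaving out any 1 of the 25 vessels kept the change of *Hbb-bs* between -4.12 and -3.48. With the vessels of female mice alone the 4 globins had log2 changes from -4.04 to -3.43 and adjusted p from 0.0197 to 0.0407 in edgeR. It called 0 of 44 genes, with 14 at an unadjusted p under 0.05, while DESeq2 called 10. The share of all genes that either test called there was not counted.

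In early AVFs the globins were not called while *Alas2* was. The log2 changes against contralateral veins were -0.41 for *Hba-a1* (adjusted p = 0.643), -0.55 for *Hba-a2* (adjusted p = 0.508), -0.87 for *Hbb-bs* (adjusted p = 0.271) and -0.49 for *Hbb-bt* (adjusted p = 0.542), with SE from 0.51 to 0.54. With female mice alone the changes of *Hba-a1* and *Hba-a2* turned to 0.33 (adjusted p = 0.88) and 0.22 (adjusted p = 0.93). That fit had 5 contralateral and 3 early vessels, among them early vessel 6, which had the highest level of both genes. Leaving vessel 6 out of the fit of all vessels gave -0.88 and -1.04, so the turn is not read as a difference between the sexes. *Alas2* had a lowest, median and highest value of 23.1, 41.3 and 98.6 CPM in early AVFs and fell by 1.67 (SE 0.43, adjusted p = 0.0051). This call was lost without contralateral vessel 31 or 632 or early vessel 1, 2, 5, 6 or 7, where the change was -1.57 to -1.47 and adjusted p 0.0114 to 0.0146. *Tent5c* fell from a mean of 102 ± 68.3 CPM (SD, n = 7) to 20.5 ± 9.96 CPM (SD, n = 8), a log2 change of -2.31 (adjusted p = 0.00015). In all, 6 erythroid genes fell and 2 rose of 44, against 6.45% and 6.17% of all genes tested and 12.6% in either direction. The others that fell were *Epb41* (-1.33), *Aqp1* (-1.40), *Lmo2* (-1.11) and *Gata2* (-2.29), and *Gpx1* (1.83) and *Nfe2* (8.31) rose. *Lmo2* lost this call without contralateral vessel 28 or 34, early vessel 1, 2, 3, 4 or 7 or late vessel 17 and under 4 of 9 other settings, and *Gata2* without contralateral vessel 28 or early vessel 1, 2, 3, 4 or 5 and under 3 of 9. The median over the 44 genes was -0.51, against -0.01 over all genes.

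Some of these genes were read as much or more in barcodes outside the hemoglobin-rich set. In contralateral veins the level in members relative to the other barcodes was 0.685 for *Aqp1*, 0.618 for *Sod1* and 0.734 for *Gata2*, and 2.84 for *Lmo2*, 5.30 for *Nfe2* and 22.5 for *Gpx1*. It was 215 for *Alas2*, 61.7 for *Epb41* and 56.2 for *Tent5c*. *Gata2* also rested on 1 library: without contralateral vessel 28 its early change was -0.98. The part of endothelial, platelet and myeloid cells in the bulk levels of these genes was not tested.

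In mid AVFs the 4 globins had log2 changes from -2.09 to -1.61 against contralateral veins, with adjusted p of 0.0359 for *Hbb-bs* and 0.0851 to 0.0995 for the others, and were not called. *Alas2* was at 141, 99.1, 91.4, 93.3 and 42.8 CPM in vessels 9, 12, 13, 14 and 15, a change of -0.83 (SE 0.49, adjusted p = 0.295). *Sod1* (-1.90) and *Lmo2* (-1.43) fell and *Nfe2* (6.58) rose, so that 2 of 44 fell and 1 rose, against 3.31% and 2.74% of all genes tested and 6.05% in either direction. *Sod1* lost its call without contralateral vessel 34 or any 1 of the 5 mid vessels, and *Lmo2* without contralateral vessel 31, early vessel 3 or mid vessel 9, 12 or 15, and each under 2 of 9 other settings. The median over the 44 genes was -0.59 and that over all genes was -0.10.

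Late AVFs were lower than early AVFs in 3 of the 4 globins. *Hbb-bs* changed by -2.88 (SE 0.68, adjusted p = 0.00853), *Hbb-bt* by -2.84 (SE 0.64, adjusted p = 0.00672) and *Hba-a1* by -2.84 (SE 0.68, adjusted p = 0.00954), and *Hba-a2* had -2.75 (SE 0.67, adjusted p = 0.0102). *Gpx1* fell by 2.09. These were 4 lower and 0 higher genes of 44, against 2.28% lower, 0.726% higher and 3.01% in either direction over all genes. The late and early groups overlapped for each globin, through early vessels 1 and 7 and, except for *Hbb-bt*, vessel 2. The 4 calls depended on single vessels, since 0 were made by edgeR in each of the 5 fits that left out 1 late vessel, with 9 or 10 genes at an unadjusted p under 0.05. *Hba-a1* and *Hbb-bs* lost their call under 5 and 4 of 9 other settings. *Alas2* was not called between late and early AVFs (-0.89, SE 0.48, adjusted p = 0.398).

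The level of *Alas2* relative to the globins varied over the vessels. Per 10000 globin counts, *Alas2* had a median of 162 counts in contralateral veins (84.2 to 723), 202 in early AVFs (22.6 to 348), 380 in mid AVFs (296 to 449) and 345 in late AVFs (268 to 424). Early vessels 6 and 5, which had the highest and the third highest globin level of the early AVFs, had 22.6 and 30.3 per 10000, the lowest of the series. They were also the most deeply sequenced, with 53097813 and 67457501 counts. *Hbb-bt* was a median of 19.9% of beta globin counts in contralateral veins and 25.02%, 24.2% and 23.8% in early, mid and late AVFs. Alpha globin took 48.8 to 66.1% of the globin counts over all vessels, above the 33.2 to 37.2% of the single-cell members, and the cause of this difference between the assays was not tested.

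The remaining markers were variable in bulk. *Bpgm* had medians of 93.9, 47.3, 79.0 and 60.5 CPM in contralateral, early, mid and late vessels and was not called in any comparison, with adjusted p from 0.0912 to 0.92. *Slc4a1* had medians of 1.05, 2.03, 3.73 and 1.63 CPM, while contralateral vessel 28 had 184 CPM. Its log2 change of -4.29 in late AVFs (SE 1.58, adjusted p = 0.0774) was not called. The embryonic globins *Hba-x* and *Hbb-bh1* had 0 counts in each of the 25 vessels. *Klf1* had 0 counts in each contralateral vein and at most 0.467 CPM elsewhere, and *Gata1* at most 5.25 CPM. Low genes were read unevenly among contralateral veins. *Slc4a1* ran from 0 counts in vessel 633 to 2938 in vessel 28, and *Epor* had 0 counts in 3 of 7 veins and a highest value of 127 CPM. A count of 0 in these veins is thus not read as absence, and the cause of this spread was not tested.

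Outside the erythroid lists, 2 of 6 genes of iron uptake and storage and 2 of the 8 tested genes of hemoglobin and heme clearance rose in early AVFs and none fell, against 6.17% and 6.45% of all genes tested. *Ftl1* and *Fth1*, the ferritin chains, rose by 2.19 and 1.11, and *Hmox1* rose from 24.5 ± 21.0 CPM (SD, n = 7) to 366 ± 144 CPM (SD, n = 8), a log2 change of 3.90 (adjusted p = 3.41e-05), with groups that did not overlap. *Hp*, which encodes haptoglobin, the plasma protein that binds free hemoglobin and is also made by neutrophils, rose by 2.95 (adjusted p = 0.000614). In the single-cell libraries *Hp* had 0 UMIs in members of contralateral veins and late AVFs and 0.960 times the level of the other barcodes in those of early AVFs. *Cd163* had a log2 change of -0.48 in early AVFs (adjusted p = 0.508) and -1.57 in late AVFs (adjusted p = 0.0662), and was not called. Of the 5 genes of cell division, *Ube2c*, *Cdk1* and *Ccnb1* rose in early AVFs by 3.08, 4.61 and 4.38 in the whole vessel, against 6.17% of all genes tested. *Mki67* (3.06, adjusted p = 0.0168, edgeR) and *Top2a* (1.87, adjusted p = 0.0420, edgeR) were not called.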

How the data were processed

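The measurements were 3 single-cell libraries, 1 per condition, and 25 bulk libraries, 1 per vessel. The authors deposited whole-number UMI counts per gene and called barcode from Cell Ranger (6.0.2 per the file headers), and a table of bulk read counts for 56980 Ensembl genes, without normalization. The submitters' processing notes also name STAR, mm10 and GRCm38 without their roles. The members and gene lists were chosen with earlier results of these data known.

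Limits on barcodes were 200 genes as a minimum, 6000 as a maximum and 10% for mitochondrial UMIs, and those with at least 30% globin UMIs were the members. Lists held 62 erythroid genes in 6 groups, genes of iron handling, cell division and heme clearance, and markers of 9 other cell types. Named genes were those of the lists and the 20 genes with the highest ratio of members to other barcodes, with 10 CPM added and at least 10 UMIs. Other barcodes were typed by at least 3 markers. Exact binomial and Poisson intervals (95%) cover counting error only, and the limit for 0 used 3 counts. Reads of near-identical globin copies may be split between them.

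Bulk symbols came from the single-cell gene lists (32210) or the reference annotation (19962), *Ahsp* was not analysed here, and some genes of the lists count in totals but are not reported here singly. Genes with a mean normalized count of at least 100 were tested (12673) with edgeR 4.0.16 in R 4.3.3: TMM, the 4 groups in one quasi-likelihood fit, Benjamini-Hochberg adjustment over all genes tested, and a call at an adjusted p under 0.01 and a log2 change of at least 1. On simulated data for early against contralateral vessels (12673 genes), 38 of 100 genes changed 4-fold and 74 of 100 changed 16-fold were recovered. Replicates are single vessels, which the labels used here do not tie to separate animals, so p-values measure the spread between these samples. Alternatives were DESeq2 1.42.0, other scalings and filters, sex, and leaving out each vessel, and DESeq2 on female mice alone and leaving out single barcodes were added after seeing the data. No doublet caller was run. Promoters were read from RefSeq, and the 5 genes shown matched. Python 3.11.15, numpy 2.4.6, scipy 1.17.1, pandas 2.3.3 and matplotlib 3.10.9 were used.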

Additional observations from a re-analysis of the deposited data

Results flagged for a closer look

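The highest and lowest vessels were compared with the rest of their group for the 4 globins, *Alas2*, *Bpgm* and *Slc4a1*. In 28 such groups 5 values lay farther from the others than Dixon's critical value at 95% allows. Chance gives about 1 in 20 groups when values are normally spread, which was not checked for these CPM. The groups reuse the same vessels across genes and are not independent, so no excess over chance is read from this count. Early vessel 6 had 6887 CPM of *Hba-a1*, with the next at 3333 CPM, and 4983 CPM of *Hba-a2*, with the next at 2239 CPM. Late vessel 16 had 48.8 CPM of *Bpgm*, below the next lowest late vessel at 59.5 CPM. *Slc4a1* stood at 184 CPM in contralateral vessel 28, with the next at 29.1 CPM, and at 15.6 CPM in early vessel 3, with the next at 6.30 CPM.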

How the results depend on the processing

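The share in contralateral veins was 17.9%, 14.5% and 12.5% at a globin limit of 20%, 50% and 70%, 38.5% with no limit on genes, 2.92% with at least 500 genes, 12.3% with no mitochondrial limit, 14.5% with that limit on UMIs outside the globins and 29.5% of all deposited barcodes. The share in early AVFs was 2.69% at 70% globin, 0.212% with at least 500 genes, 2.60% with no mitochondrial limit and 2.76% of all deposited barcodes. The share in late AVFs was 0.103% at 70% globin and 0.0182% (1 barcode) with at least 500 genes. The order of the libraries was the same under each.

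Of the bulk erythroid genes (8, 3, 9 and 4 calls for early, mid and late against contralateral veins and late against early), DESeq2 called 7 for mid and 7 for late against early. DESeq2 size factors gave 2 and sex as a covariate 2 for late against early. The edgeR filter on expression gave 7 for mid and 1 for late against early, and no filter gave 8 for mid. An adjusted p under 0.05 gave 7 for mid and 8 for late against early. Female mice alone gave 2, 1, 0 and 0, and there *Hba-a1* (0.33, adjusted p = 0.88) and *Hba-a2* (0.22, adjusted p = 0.93) turned higher in early AVFs. There DESeq2, added after seeing the data, called 7, 5, 10 and 5, with *Hba-a1* at 0.21 and *Hba-a2* at 0.090 in early AVFs. The 0 calls of edgeR stood beside 14 and 7 genes at an unadjusted p under 0.05. The share of all tested genes called was not counted under these settings or without 1 library. A higher or lower count there is thus not read as more or less erythroid signal.

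Leaving out 1 library gave 6 to 10, 1 to 6, 4 to 11 and 0 to 6 calls. The mid count was lowest without mid vessel 9, 12 or 15 and highest without contralateral vessel 632, and the late count was lowest without late vessel 16. The count for late against early was 0 without late vessel 16, 17, 19, 23 or 24, 1 without contralateral vessel 27 or 31 or early vessel 3, 5 or 6, 2 without contralateral vessel 633 or mid vessel 12, 13 or 14, and 6 without contralateral vessel 28 or early vessel 4. *Hbb-bs*, *Hbb-bt* and *Alas2* kept their calls for late against contralateral veins in 25 of 25 such fits, *Hba-a2* in 24 and *Hba-a1* in 23. Of the values that answer a comparison, 36 of 64 under other settings and 81 of 100 without 1 library kept their size or call. No paired analysis was possible because the groups compared share no replicate number. Depth limits the late single-cell profile, which rests on 12 barcodes.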
